A study of Mus musculus with 8 samples.

Results

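The 10 genes described here mark the endothelial lineage, the cells that line blood vessels, and were taken by gene name from the RNA-seq table of the study: Kdr, Flt1, Tek, Tie1, Cdh5, Pecam1, Emcn, Sox18, Erg and Etv2. All 10 were found among the 32567 genes of the table. Poly-A RNA was sequenced from undifferentiated mouse embryonic stem cells (ESC) and from cells differentiated as embryoid bodies with retinoic acid (RA-DIFF). A wild-type line was set beside a line that carries the targeted Hdh ex4/5 null allele of the Huntington's disease gene orthologue Htt on both chromosomes (Htt-null). ESC had been kept for 4 passages without feeder cells. Each genotype was represented by 1 line and each of the 4 conditions by 1 library, so no difference has a replicate check and none can be separated from a difference between lines, cultures or libraries. Small RNA from the same 4 conditions was sequenced in the other 4 of the 8 samples.

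Endothelial cells arise from mesoderm that carries the VEGF receptor Kdr (VEGFR2), under transcription factors of the ETS family such as Etv2 and Erg and of the SoxF family such as Sox18. VEGF signals through Kdr, whereas Flt1 (VEGFR1) binds the same ligand and largely holds it back from Kdr. Tek (Tie2) is the receptor of the angiopoietins and Tie1 its partner, and Cdh5 (VE-cadherin), Pecam1 (CD31) and the sialomucin Emcn are surface proteins of the formed vessel wall. Several of these genes are not restricted to endothelium: Pecam1 is also a surface protein of naive mouse ESC, and Kdr marks early mesodermal progenitors.

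The labels were examined before the results. Htt (ENSMUSG00000029104, chromosome 5 of GRCm38, 34761740 to 34912534, plus strand) gave 14385 reads in wild-type ESC, 7260 in Htt-null ESC, 8212 in RA-DIFF labelled wild type and 9722 in RA-DIFF labelled Htt-null. The genotype ratio of Htt, Htt-null to wild type on the log2 scale, was -0.58 for ESC and 0.43 for RA-DIFF, so in RA-DIFF the targeted gene went against the labels. In the gene table that accompanies the study, the values listed for wild-type RA-DIFF follow the deposited column labelled Htt-null and the reverse, while both ESC columns keep their names. For the crossed RA-DIFF pairs the standard deviation of the log2 difference was 0.00355 for the study's wild-type values and 0.00372 for its Htt-null values. For RA-DIFF pairs of the same name it was 0.808 and 0.823. The paper names blood vessel morphogenesis among the terms enriched in its genes lower in Htt-null RA-DIFF cells. The RA-DIFF libraries are called by their deposited labels throughout, as names and not as settled genotypes. If these labels are exchanged, every RA-DIFF difference between genotypes given here for the RNA-seq libraries keeps its size and changes its sign. The libraries held between 63617410 and 110569127 counts. Levels are given as CPM, the counts scaled to library size and corrected for composition by TMM factors. The summed level of 8 pluripotency markers went from 5318 and 4528 CPM in wild-type and Htt-null ESC to 55.3 and 13.2 in RA-DIFF labelled wild type and Htt-null. The summed level of 8 neuronal markers went from 283 and 316 to 2639 and 1229 CPM in the same order.

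Promoter sequences are printed here for the 4 members that were called between the stages and had a RefSeq entry. Kdr and Emcn were called higher in RA-DIFF than in ESC, and the sister receptors Tek and Tie1 were called lower. The sequences are from RefSeq on GRCm38.p6 and run 5′ to 3′ on the strand of the gene, from 250 bases before to 50 bases after the start of the gene. Capitals mark the core of ETS factor sites, GGAA, on either strand (TTCC on the other). RefSeq entries were matched for 7 of the 10 members, and Cdh5, Pecam1 and Sox18 had no entry in the table used. The Kdr promoter is chr5:75978406-75978705 (minus strand), that of Emcn chr3:137340828-137341127 (plus strand), that of Tek chr4:94739039-94739338 (plus strand) and that of Tie1 chr4:118489800-118490099 (minus strand). The start used for Tie1 lies 212 bases inside the gene as annotated by GENCODE.
Kdr: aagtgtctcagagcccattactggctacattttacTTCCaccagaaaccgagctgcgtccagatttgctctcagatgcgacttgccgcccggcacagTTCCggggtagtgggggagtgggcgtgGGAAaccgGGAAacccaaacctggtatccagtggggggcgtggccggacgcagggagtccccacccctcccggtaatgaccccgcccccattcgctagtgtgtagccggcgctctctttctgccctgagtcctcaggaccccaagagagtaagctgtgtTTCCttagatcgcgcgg
Emcn: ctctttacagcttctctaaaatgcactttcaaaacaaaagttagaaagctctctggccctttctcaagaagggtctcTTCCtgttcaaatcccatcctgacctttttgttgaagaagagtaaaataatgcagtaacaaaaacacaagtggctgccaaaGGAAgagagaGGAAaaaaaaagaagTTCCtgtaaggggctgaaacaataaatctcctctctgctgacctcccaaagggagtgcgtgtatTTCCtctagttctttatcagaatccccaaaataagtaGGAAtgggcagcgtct
Tek: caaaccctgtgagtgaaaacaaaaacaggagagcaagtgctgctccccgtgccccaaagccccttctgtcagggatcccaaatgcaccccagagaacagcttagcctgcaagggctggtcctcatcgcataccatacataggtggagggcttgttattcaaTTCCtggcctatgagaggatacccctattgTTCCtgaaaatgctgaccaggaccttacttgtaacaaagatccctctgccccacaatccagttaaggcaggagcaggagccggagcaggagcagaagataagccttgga
Tie1: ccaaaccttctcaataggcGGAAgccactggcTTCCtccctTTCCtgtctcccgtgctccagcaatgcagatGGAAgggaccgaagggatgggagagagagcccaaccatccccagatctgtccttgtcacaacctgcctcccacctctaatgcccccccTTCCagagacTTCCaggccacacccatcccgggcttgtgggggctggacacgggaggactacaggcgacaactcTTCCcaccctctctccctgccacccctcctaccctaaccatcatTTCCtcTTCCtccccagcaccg

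The Kdr promoter held 5 ETS cores, that of Emcn 6, that of Tek 2 and that of Tie1 9, against a median of 3 over 32851 mouse promoters of the same length. At least 1 such core was found in 96.0% of all promoters, so its presence alone does not set the members apart. The longer FOX:ETS core AACAGGAA, searched on both strands and containing an ETS core, was present once in Emcn, in none of the other 6 promoters and in 2.65% of all promoters. The GATA motif AGATAA was present once in Tek and in 11.2% of all promoters, and the SOX motif AACAAT once each in Tek and Emcn and in 10.7%. Kdr had 19 CG pairs and Flt1 29, whereas Tek had 3 and Emcn 2, with a median of 7 over all promoters. These counts describe letters in a window and are not evidence of binding.

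The members differed widely in level and fell into groups by stage. Each level has a Wilson 95% interval that covers counting error only, and a library with no read for a gene allows up to 3 counts, or 0.0268 to 0.046 CPM. Pecam1 and Tek led in ESC, Kdr led in RA-DIFF, and Emcn was read only in RA-DIFF. Erg and Etv2 stayed at or below 1.13 CPM in all 4 libraries. The same amount of RNA could come from a few cells with a high level or from many with a low one, and in bulk libraries fewer cells of a type and less RNA per cell cannot be told apart.

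**Figure D1:**
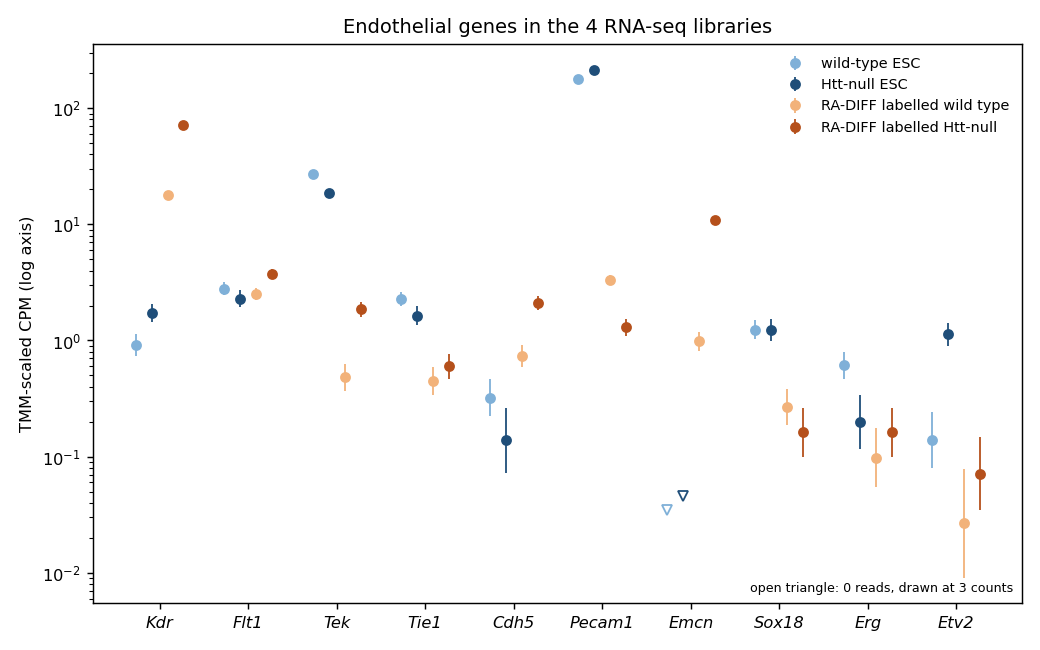
TMM-scaled CPM (log axis) of the 10 endothelial genes in the 4 RNA-seq libraries, 1 point per library with Wilson 95% bars for counting error. Open triangles mark the 2 ESC libraries without an Emcn read, drawn at 3 counts; Kdr and Emcn lie highest in RA-DIFF labelled Htt-null, at 71.7 and 11.0 CPM, and Pecam1 lies highest in ESC, at 180 and 212 CPM.

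Of the VEGF receptors, Kdr (ENSMUSG00000062960, chromosome 5, 75932827 to 75978458, minus strand) had 79 reads in wild-type ESC, 113 in Htt-null ESC, 2011 in RA-DIFF labelled wild type and 7060 in RA-DIFF labelled Htt-null. These are 0.911 CPM (interval 0.731 to 1.14), 1.73 CPM (1.44 to 2.08), 17.9 CPM (17.2 to 18.7) and 71.7 CPM (70.0 to 73.4). All 4 intervals were apart, with both RA-DIFF libraries far above both ESC libraries. Flt1 (ENSMUSG00000029648, chromosome 5, 147561604 to 147726011, minus strand) had 243, 150, 283 and 368 reads in the same order of libraries, or 2.80, 2.30, 2.53 and 3.74 CPM. Its levels lay closer together than those of Kdr, at 99.0% of the mean of the ESC libraries in RA-DIFF labelled wild type and 147% in RA-DIFF labelled Htt-null. Per kilobase of exon, Kdr was 0.486 times Flt1 in wild-type ESC (interval 0.372 to 0.629), 1.13 times in Htt-null ESC (0.875 to 1.45), 10.6 times in RA-DIFF labelled wild type (9.38 to 12.1) and 28.7 times in RA-DIFF labelled Htt-null (25.8 to 31.9). The balance between the signalling receptor and its decoy thus moved towards Kdr in both RA-DIFF libraries.

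The angiopoietin receptors went the other way with differentiation. Tek (ENSMUSG00000006386, chromosome 4, 94739289 to 94874976, plus strand) had 2362 reads in wild-type ESC, 1203 in Htt-null ESC, 54 in RA-DIFF labelled wild type and 183 in RA-DIFF labelled Htt-null, or 27.2, 18.4, 0.482 and 1.86 CPM. Tie1 (ENSMUSG00000033191, chromosome 4, 118471191 to 118490061, minus strand) had 199, 107, 50 and 59 reads, or 2.29, 1.64, 0.446 and 0.599 CPM. Both receptors were lower in each RA-DIFF library than in each ESC library, and the Tie1 intervals of the RA-DIFF libraries overlapped (0.338 to 0.588 and 0.465 to 0.773 CPM). Tek was 12.4 times Tie1 per kilobase in wild-type ESC (interval 10.7 to 14.4) and 11.7 times in Htt-null ESC (9.62 to 14.4). In RA-DIFF this fell to 1.13 times (0.753 to 1.69) in the library labelled wild type and 3.24 times (2.40 to 4.42) in the library labelled Htt-null.

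The vessel wall proteins had 3 different profiles. Pecam1 (ENSMUSG00000020717, chromosome 11, 106654217 to 106750628, minus strand) had 15620 reads in wild-type ESC, 13855 in Htt-null ESC, 374 in RA-DIFF labelled wild type and 128 in RA-DIFF labelled Htt-null, or 180, 212, 3.34 and 1.30 CPM. RA-DIFF labelled wild type kept 1.70% of the mean ESC level of Pecam1 and RA-DIFF labelled Htt-null 0.662%. The pluripotency factors Pou5f1, Nanog and Zfp42 kept 1.67%, 1.27% and 1.04% in the library labelled wild type. In the library labelled Htt-null they kept 0.177%, 0.276% and 0.0870%. Less was left in the library labelled Htt-null for Pecam1 and for 7 of the 8 pluripotency genes, while Klf4 kept 5.60% in the library labelled wild type and 7.02% in that labelled Htt-null.

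Emcn (ENSMUSG00000054690, chromosome 3, 137341067 to 137432185, plus strand) had no read in either ESC library, 110 reads in RA-DIFF labelled wild type and 1084 in RA-DIFF labelled Htt-null, or 0.982 CPM (interval 0.815 to 1.18) and 11.0 CPM (10.4 to 11.7). Cdh5 (ENSMUSG00000031871, chromosome 8, 104101625 to 104144502, plus strand) had 28, 9, 82 and 208 reads, or 0.323, 0.138, 0.732 and 2.11 CPM. Both genes were highest in RA-DIFF labelled Htt-null and lowest in ESC. Cdh5 overlaps the antisense gene Gm29682 over 4249 bp in GENCODE vM21, and that gene is not among those counted. The libraries were strand-specific and the Methods leave unnamed options of the programs at their defaults, but whether the counting kept reads of this pair apart was not tested. The other 9 members overlapped no annotated gene.

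The transcription factors were scarce in all libraries. Sox18 (ENSMUSG00000046470, chromosome 2, 181669836 to 181671640, minus strand) had 107 reads in wild-type ESC, 80 in Htt-null ESC, 30 in RA-DIFF labelled wild type and 16 in RA-DIFF labelled Htt-null, or 1.23, 1.23, 0.268 and 0.162 CPM. Erg (ENSMUSG00000040732, chromosome 16, 95359169 to 95586593, minus strand) had 53, 13, 11 and 16 reads, and Etv2 (ENSMUSG00000006311, chromosome 7, 30633616 to 30635852, minus strand) 12, 74, 3 and 7. Sox18 was higher in both ESC libraries than in both RA-DIFF libraries, Erg was highest in wild-type ESC and Etv2 in Htt-null ESC. In RA-DIFF the intervals of the libraries overlapped for each of the 3 factors. All 3 factors were thus at or below 0.268 CPM in the libraries where Kdr was highest.

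Per kilobase of exon, the order of the members changed with the stage. In wild-type ESC Pecam1 made up 79.0% of the summed level of the 10 members and Tek 15.8%, and in Htt-null ESC 83.9% and 9.63%. In RA-DIFF Kdr made up 57.1% of the sum in the library labelled wild type and 67.9% in the library labelled Htt-null. The next gene was Pecam1 in the library labelled wild type, with 15.4%, and Emcn in the library labelled Htt-null, with 17.4%. Adjacent genes had overlapping counting intervals along the run from Flt1 through Erg, Etv2 and Kdr to Cdh5 in wild-type ESC. In Htt-null ESC Etv2 overlapped Sox18, Kdr overlapped Flt1 and Erg overlapped Cdh5. Genes farther apart in a run could be separate, as Flt1 (0.183 to 0.235 CPM per kilobase) and Kdr (0.081 to 0.126) in wild-type ESC. Overlapping intervals do not by themselves leave an order unresolved. In RA-DIFF labelled wild type adjacent genes overlapped along the run from Flt1 through Emcn, Cdh5, Sox18 and Tek to Tie1, and Erg overlapped Etv2. In RA-DIFF labelled Htt-null Cdh5 overlapped Tek, and adjacent genes overlapped along the run from Tie1 through Sox18 and Etv2 to Erg. The leading genes of each library were separated from the next in order by more than counting error.

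The difference between genotypes in RA-DIFF was then examined. A gene was called when its log2 ratio was beyond 0.75 in either direction, its average log2 CPM over the 4 libraries was above 0 and the higher library had at least 30 counts. These are size limits and not a test. Of the 10 members 6 passed the expression limit, as did 15492 of 32567 genes. Cdh5, Sox18, Erg and Etv2 did not. Emcn was under 1 CPM elsewhere and passed only through RA-DIFF labelled Htt-null, so its call as higher there is not independent of the limit. Kdr, Tek and Emcn were called higher and Pecam1 lower in RA-DIFF labelled Htt-null, that is 3 and 1 of the 6 members tested, where 11.7% of the 15072 genes tested were called higher and 8.41% lower. With the plain mean of log2 CPM as the limit Emcn was lost and 2 members were called higher, next to 1574 of 14328 genes. Over all 10 members the median log2 ratio was 1.07, with 8 ratios above 0, over the 6 tested it was 1.26, and over all genes tested it was -0.01.

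Emcn had the largest ratio of the 10, 11.2-fold higher in RA-DIFF labelled Htt-null (log2 3.49, counting interval 3.20 to 3.78). Kdr was 3.99-fold higher (log2 2.00, 1.93 to 2.07) and Tek 3.86-fold higher (log2 1.95, 1.50 to 2.41). Cdh5, below the expression limit, was 2.89-fold higher (log2 1.53, 1.15 to 1.92). Flt1 had a log2 ratio of 0.57 (0.34 to 0.79), within the fold limit. Tie1, with 0.43 (-0.14 to 1.00), was not resolved from no difference by its counts. Pecam1 was 2.57-fold lower (log2 -1.36, -1.66 to -1.07), the only called member with that sign. The intervals of Sox18 (log2 -0.72, -1.69 to 0.20), Erg (0.73, -0.47 to 1.98) and Etv2 (1.41, -0.72 to 3.99) included 0, so a difference was not detectable at this depth. Emcn rose relative to Kdr as well: per kilobase it was 0.0913 times Kdr in the library labelled wild type (interval 0.0747 to 0.111) and 0.256 times in the library labelled Htt-null (0.240 to 0.273).

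In ESC the differences between genotypes were smaller for most members. Kdr was called higher in Htt-null ESC (log2 0.93, counting interval 0.50 to 1.36), the only call among the 5 members tested, and it was lost at a fold limit of 1 and with edgeR's exact test at an assumed dispersion of 0.1. In ESC 4.27% of the 14817 genes tested were called higher and 2.93% lower. Tek was lower in Htt-null ESC by less than the fold limit (log2 -0.56, -0.66 to -0.46), as was Tie1 (-0.48, -0.84 to -0.14). Flt1 (-0.29, -0.59 to 0.01) and Sox18 (-0.01, -0.45 to 0.42) had intervals that included 0. Etv2 was 8.20-fold higher in Htt-null ESC (log2 3.04, 2.15 to 4.05), and Erg 3.07-fold lower (log2 -1.62, -2.62 to -0.72). Cdh5 was lower on 9 against 28 reads (log2 -1.23, -2.50 to -0.10). These 3 genes lay below the expression limit and were not called. No ratio is given for Emcn, which had no read in ESC. Over the 9 members with a ratio the median was -0.29, and over all genes tested -0.04.

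Pecam1 had a log2 ratio of 0.24 (0.20 to 0.27) in ESC, next to a median of 0.215 over the 1182 genes tested on chromosome 11. The 795 genes tested on chromosome 8, which holds Cdh5, had a median of 0.360 in ESC and those on the same chromosome -0.224 in RA-DIFF. The part of a whole-chromosome shift in the ratios of Pecam1 and Cdh5 was not tested.

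**Figure D2:**
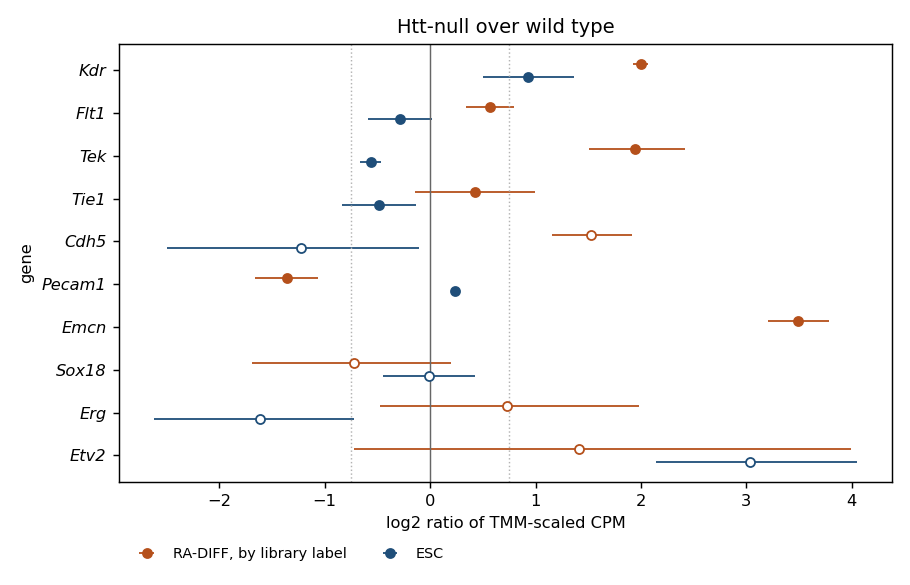
Log2 ratio of TMM-scaled CPM, Htt-null over wild type, for the 10 members in RA-DIFF (orange, by library label) and ESC (blue), with 95% counting intervals. Dotted lines mark the fold limit of 0.75 in both directions and white symbols the genes outside the expression or count limits; Emcn in RA-DIFF lies farthest right, at 3.49, Pecam1 in RA-DIFF lies left of 0, at -1.36, and Emcn has no ESC value.

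The members were next compared between RA-DIFF and ESC. Kdr rose 19.7-fold in the libraries labelled wild type (log2 4.30) and 41.4-fold in those labelled Htt-null (log2 5.37). Emcn was at least 28.4-fold higher (log2 4.83) and at least 239-fold higher (log2 7.90), with the ESC libraries set at 3 counts each. Tek fell 56.5-fold and 9.92-fold (log2 -5.82 and -3.31), Pecam1 54.0-fold and 163-fold (log2 -5.75 and -7.35), and Tie1 5.14-fold and 2.74-fold (log2 -2.36 and -1.45). The call of Tie1 was lost in both pairs at an expression limit of an average log2 CPM above 1. With exchanged RA-DIFF labels the log2 ratios of the wild-type and Htt-null pairs were 6.30 and 3.37 for Kdr, -3.87 and -5.26 for Tek, -7.11 and -5.99 for Pecam1, -1.94 and -1.88 for Tie1, and at least 8.31 and 4.42 for Emcn, so which pair differed more depends on the labels for each of these genes but Tie1. Kdr and Emcn were the 2 members called higher, and Tek, Pecam1 and Tie1 the 3 called lower, of the 6 tested in both pairs of libraries. Emcn had no read in ESC and passed the expression limit only through RA-DIFF, so its direction was fixed by that limit. With the plain mean of log2 CPM as the limit Emcn was lost, and 1 member was called higher in either pair. Of all genes tested, 34.0% were called higher and 26.2% lower in the libraries labelled wild type, and 34.4% and 24.9% in those labelled Htt-null.

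Flt1 was called in neither pair (log2 -0.15 and 0.70). Of the genes under the expression limit, Cdh5 had log2 ratios of 1.18 and 3.94, Sox18 of -2.20 and -2.92, Etv2 of -2.37 and -4.00, and Erg of -2.64 and -0.29. The interval of Erg in the libraries labelled Htt-null, -1.44 to 0.88, included 0. Over all 10 members the median was -2.28 in the libraries labelled wild type and -0.87 in those labelled Htt-null, and over the 6 tested it was -1.26 and -0.38, against 0.12 and 0.17 over all genes tested. These comparisons use the same libraries as the comparisons between genotypes and are not independent of them. Summed over the members, the level went from 216 and 239 CPM in wild-type and Htt-null ESC to 26.8 and 92.7 CPM in RA-DIFF labelled wild type and Htt-null. Without Kdr and Pecam1 the sums were 34.6, 25.1, 5.56 and 19.7 CPM in the same order.

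**Figure D3:**
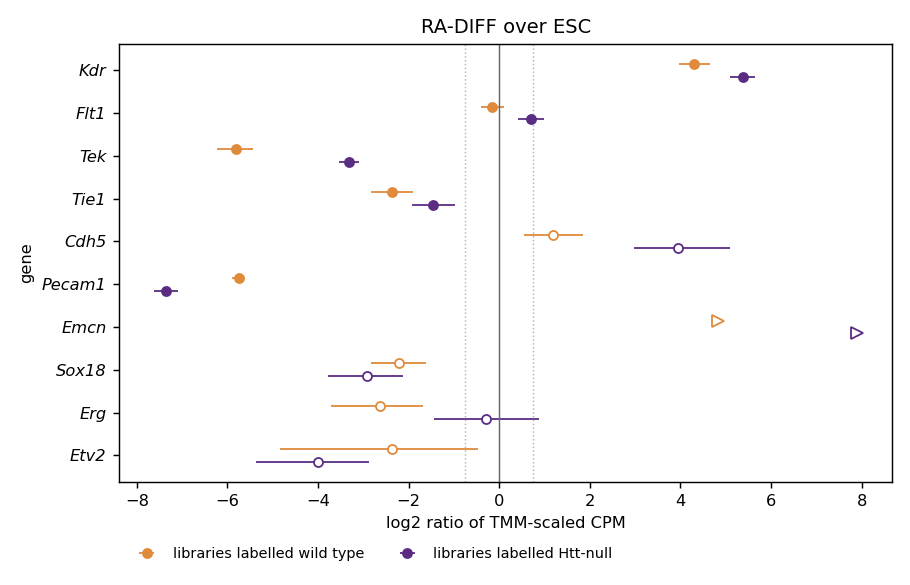
Log2 ratio of TMM-scaled CPM, RA-DIFF over ESC, for the 10 members in the libraries labelled wild type (orange) and labelled Htt-null (purple), with 95% counting intervals and dotted lines at the fold limit of 0.75. Open triangles mark Emcn, at 4.83 and 7.90, as lower bounds and white circles the genes outside the limits; Kdr lies to the right of 0 and Tek, Tie1 and Pecam1 to the left in both pairs.

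Other genes of the endothelial lineage and of vascular signalling were examined as a list of 46, of which 45 were in the table. This list, like the members and the marker lists of other cells, was chosen with earlier results of these data known. Its counts beside those of all genes are therefore a description and not independent support. Of the 40 tested in RA-DIFF, 16 were called higher and 4 lower in RA-DIFF labelled Htt-null, where 11.7% and 8.41% of all genes tested were called. The median over the 44 with a ratio was 0.53, against -0.01 over all genes tested. With edgeR's exact test at an assumed dispersion of 0.1 the list counted 13 calls, 10 of them higher, next to 804 genes higher and 490 lower of all 15072 tested. Fli1, Aplnr and Ecscr were under 1 CPM in the other 3 libraries and passed the expression limit through RA-DIFF labelled Htt-null. With the plain mean of log2 CPM as the limit 13 list genes were called higher. Of the ligands, the VEGF family member Pgf (log2 0.90), the Tek ligand Angpt2 (1.59) and the apelin peptide gene Apln (1.99) were called higher. Vegfa itself (-0.26), Vegfb (-0.42), Vegfc (0.13) and the main Tek agonist Angpt1 (0.33) were within the fold limit. Angpt1 had 0 and 1 reads in wild-type and Htt-null ESC and 3485 and 3863 in RA-DIFF labelled wild type and Htt-null, so the Tek ligand was read where Tek itself was scarce.

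Of the receptors, the apelin receptor Aplnr (log2 3.07), the lymphatic VEGF receptor Flt4 (1.76), the TGF-beta family receptors Acvrl1 (1.92) and Eng (1.07), the VEGF coreceptor Nrp1 (0.94) and the sphingosine phosphate receptor S1pr1 (0.88) were called higher. Aplnr had 0, 2, 62 and 456 reads in wild-type ESC, Htt-null ESC, RA-DIFF labelled wild type and RA-DIFF labelled Htt-null. Robo4, a guidance receptor of endothelium, was called lower (log2 -2.34), with 1010, 945, 184 and 32 reads. Nrp2 (0.51), Ephb4 (0.51) and Notch4 (-0.56) were within the fold limit, as were Efnb2 (-0.36) and Dll4 (0.03), membrane-bound ligands of Ephb4 and of Notch receptors. The called receptors thus did not share one sign.

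Among the transcription factors, the ETS genes Fli1 (log2 3.02), Elk3 (1.90) and Ets1 (1.39), the SoxF gene Sox7 (1.07) and the homeobox gene Hhex (2.05) were called higher in the library labelled Htt-null. Ets2 (0.59), Sox17 (0.50), Nr2f2 (0.42) and Lmo2 (-0.68) were tested and within the fold limit. Fli1 had 6, 0, 69 and 492 reads in the order above and was thus the ETS member of the list with the highest ratio. Mecom (-1.92), a factor of blood stem cells, and Gata2 (-1.02) and Tal1 (-2.93), which act in blood and endothelial progenitors and also in some neurons, were called lower. Tal1 had 8, 22, 2016 and 232 reads, highest in RA-DIFF labelled wild type. Of the surface and secreted proteins, Cd34 (1.20) and Ecscr (2.12) were called higher, and Esam (-0.64), Cldn5 (-0.40), Plvap (-0.14), Egfl7 (0.19), Mmrn2 (0.14) and Vwf (0.71) were not called. In ESC, Pgf (1.59), Mecom (1.17) and Ramp2 (0.82) were called higher and Cd34 (-0.82) lower of 34 tested (4.27% and 2.93% of all genes tested), with a median of 0.05 over the 42 with a ratio. Ramp2 and Cd34 were lost at a fold limit of 1. With edgeR's exact test at an assumed dispersion of 0.1, 1 of these calls was left, next to 110 genes higher and 74 lower of all 14817. From ESC to RA-DIFF, 19 of 40 were called higher and 15 lower in the libraries labelled wild type, and 23 and 11 in those labelled Htt-null, next to 34.0% and 26.2% of all genes tested in the former and 34.4% and 24.9% in the latter.

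**Figure D4:**
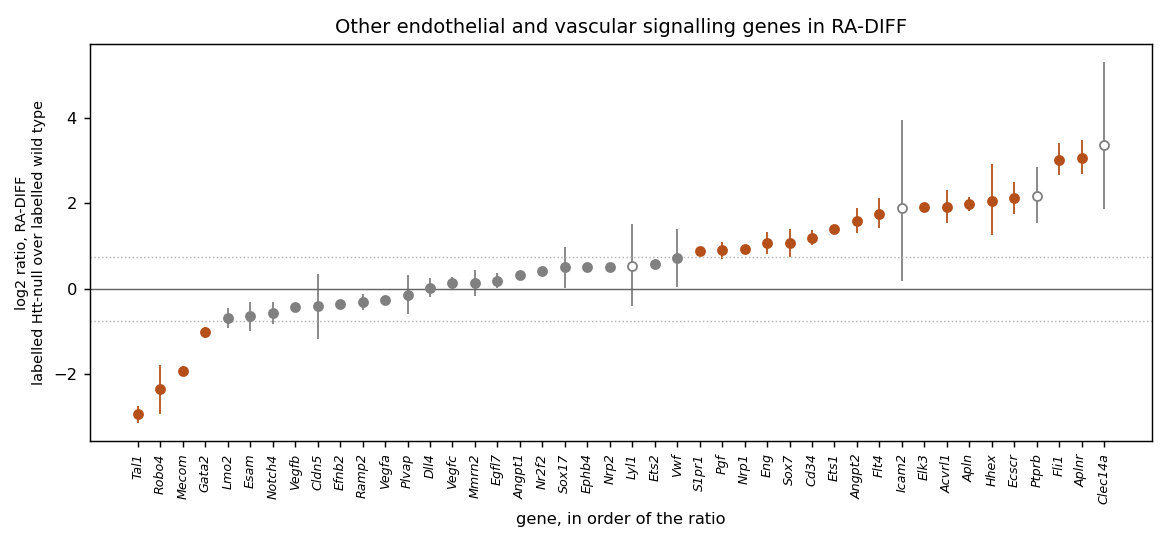
Log2 ratio of TMM-scaled CPM in RA-DIFF, library labelled Htt-null over library labelled wild type, for 44 other endothelial and vascular signalling genes in order of the ratio, with 95% counting intervals. Coloured points were called, 16 above and 4 below 0, grey points were tested and not called, and white points were not tested; Tal1 lies lowest, at -2.93, and Clec14a, which was not tested, highest.

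Markers of other cells moved with the same pair of RA-DIFF libraries. Summed over 8 genes of mural cells and smooth muscle, the level was 31.8 and 39.4 CPM in wild-type and Htt-null ESC, 90.4 CPM in RA-DIFF labelled wild type and 860 CPM in RA-DIFF labelled Htt-null. Of the 6 genes tested 4 were called higher in RA-DIFF labelled Htt-null (11.7% of all genes tested), none was called lower (8.41%) and Acta2 led with a log2 ratio of 3.95. Acta2 (635 CPM) and Tagln (161 CPM) made up most of the sum in that library, while Pdgfrb (log2 0.57) and Des (0.72) were tested and not called. Myh11 (0.58) and Rgs5 (-0.12) were below the expression limit and not tested. The 8 fibroblast and mesenchyme genes summed to 40.7, 28.1, 538 and 1601 CPM in the same order, and all 8 were called higher. The 8 neuronal genes were at 2639 CPM in the library labelled wild type and 1229 CPM in that labelled Htt-null, with 6 called lower, and of the 8 pluripotency genes 7 were called lower. No mural, neuronal or pluripotency marker was at 0 in any library, and of the mesenchymal markers Lum and Dcn were each at 0 in 1 ESC library. The part of a different mix of cells in the ratios of the endothelial genes was not tested.

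**Figure D5:**
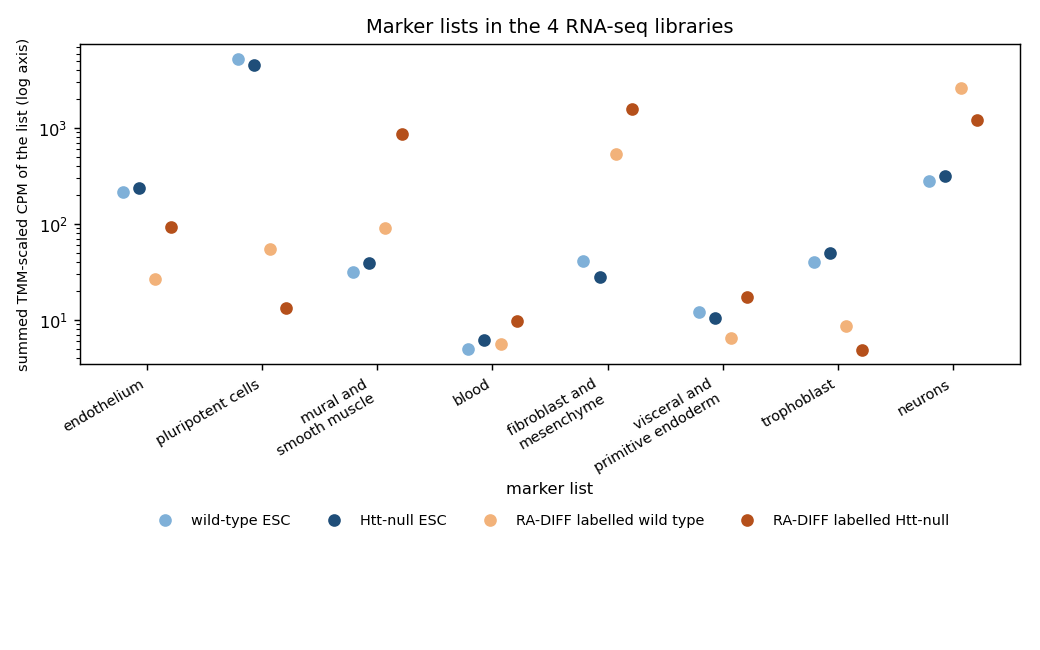
Summed TMM-scaled CPM (log axis) of 8 marker lists, the endothelial members among them, in the 4 RNA-seq libraries, 1 point per library and no error bars. Mural and mesenchymal lists are higher in RA-DIFF labelled Htt-null, at 860 and 1601 CPM, and the neuronal list in that labelled wild type, at 2639 CPM.

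The members with an average log2 CPM above 0 were set beside the 15492 genes above that limit by the distance between their log2 CPM profiles, each centred over the 4 libraries. With only 4 points per profile, likeness is a description of these libraries. Among the nearest profiles to Kdr were those of Exoc3l4 and Islr, and 16 genes lay within a distance of 0.5. Those nearest to Tek were Mpzl2, Xaf1 and Hhex, with 10 genes within that distance, and those nearest to Pecam1 were Klf2, a transcription factor of both endothelium and naive ESC, Was and Cldn4, with 19. For Emcn only Ferd3l, a bHLH factor gene, lay within 0.5, followed by Cp and Fibin. Ferd3l had no read in ESC, 105 reads in RA-DIFF labelled wild type and 885 in RA-DIFF labelled Htt-null, next to 110 and 1084 for Emcn. The profile of Flt1 had 1568 genes within 0.5, the nearest being Klhl42, Fam83d and AU020206, and that of Tie1 had 307, the nearest being Skil, Acp6 and Zfp607.

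In the small RNA libraries miR-126a was examined, which is produced from a hairpin within Egfl7, a gene known for its expression in endothelium. Egfl7 was itself higher in ESC (35.2 and 32.4 CPM in wild-type and Htt-null) than in RA-DIFF (4.45 and 5.09 CPM). The Mir126a hairpin is at chr2:26591357-26591429 (GRCm38, plus strand), and 9 of the 19 annotated Egfl7 transcripts span it, 8 of them with the hairpin in an intron. The mature sequences are shown because the products of the locus differ in their seeds, bases 2 to 8, which are in capitals and decide target pairing. They are from RefSeq on GRCm38.p6. miR-126a-3p lies on the plus strand, and both miR-126b arms are read from the minus strand of the same locus. miR-126a-5p was counted but had no entry.
miR-126a-3p: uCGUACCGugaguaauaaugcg
miR-126b-3p: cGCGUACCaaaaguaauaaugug
miR-126b-5p: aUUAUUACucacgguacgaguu

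No seed was shared among the 3 sequences. miR-126a-3p, the product with the most reads, had 1286 reads in wild-type ESC, 1380 in Htt-null ESC, 1027 in RA-DIFF labelled wild type and 1840 in RA-DIFF labelled Htt-null, or 63.8, 62.8, 57.4 and 152 CPM after TMM scaling over the small RNA libraries. On this scale the library labelled Htt-null stood above the other 3. By library size alone the levels were 99.8, 115, 40.0 and 75.8 CPM. Both scalings placed the RA-DIFF library labelled Htt-null above that labelled wild type, and the latter below both ESC libraries (log2 ratio to wild-type ESC -0.15 with TMM scaling and -1.32 by library size). In RA-DIFF the log2 ratio was 1.40 (counting interval 1.29 to 1.51), or 0.92 with scaling by library size alone, against a median of -0.03 over 687 miRNAs. In ESC it was -0.02 (-0.13 to 0.09), or 0.21 by library size alone. The labels of the small RNA libraries were not checked here. From ESC to RA-DIFF no direction is given for miR-126a-3p in the libraries labelled Htt-null, since the ratio was 1.27 with TMM scaling and -0.61 by library size.

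miR-126b-3p, with 233, 152, 71 and 152 reads, had a RA-DIFF log2 ratio of 1.66 (1.24 to 2.09), or 1.18 by library size alone. In ESC its ratio was -0.74 (-1.05 to -0.44), or -0.51 by library size alone. miR-126a-5p had 6, 6, 9 and 23 reads and miR-126b-5p 4, 6, 2 and 2. The host gene Egfl7 had 3053, 2111, 499 and 501 reads in the RNA-seq libraries, with a RA-DIFF log2 ratio of 0.19 (0.01 to 0.37). By the deposited labels of both assays, the ratio of the miRNA was thus larger than that of its host transcript, measured in separate libraries with separate scaling.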

How the data were processed

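According to the Methods and the submitters' processing notes, the authors aligned paired-end reads of strand-specific poly-A libraries to GRCm38 with TopHat2 2.0.14, counted them on GENCODE genes with HTSeq 0.6.1 and deposited raw counts. The deposited small RNA counts were made with cutadapt 1.3 and BWA 0.7.5a-r418, the latter on mature miRNAs. Every column was assigned to a sample by name. TMM factors, CPM and the average log2 CPM were computed with edgeR 4.0.16 (R 4.3.3), and the rest with Python 3.11.15, pandas 2.3.3, numpy 2.4.6, scipy 1.17.1 and matplotlib 3.10.9. With 1 library per condition no dispersion could be estimated, so the quasi-likelihood test was not fitted and no p-value is given. The code of the calling step was run on simulated counts that held counting error alone and large changes in well-read genes. This checks the code and not the rate of false calls between unreplicated cultures. Levels carry Wilson and ratios Clopper-Pearson intervals at the 95% level. Since PCR can copy 1 molecule into several reads, intervals and floors cover counting error only. The fold and expression limits are those of the Methods.

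The named genes are the 10 members, Htt, the genes of the listed markers and, for each member above the expression limit, the 3 genes with the nearest profile. A gene that this rule names is not reported here. The members and lists were chosen with earlier results of these data known. Of the listed genes, Vegfd, Cd48 and Prl3d1 were not analysed here. Genes were placed by GENCODE vM21 (GRCm38). The alternatives were other scalings, expression limits and fold limits, edgeR's exact test with an assumed dispersion of 0.01 or 0.1, and exchanged RA-DIFF labels. The plain mean of log2 CPM (prior count 2) as the expression limit was added after seeing the data.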

Additional observations from a re-analysis of the deposited data

Results flagged for a closer look

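The genotype ratio (log2, Htt-null to wild type) had opposite signs at the 2 stages for 3 members, each with a counting interval that excluded 0 at both stages. These are Tek, with 1.95 in RA-DIFF (by library label) and -0.56 in ESC, Cdh5, with 1.53 and -1.23, and Pecam1, with -1.36 and 0.24. With 1 library per condition the difference between stages was not tested. If the labels of the RA-DIFF libraries are exchanged, the 3 genes have the same sign at both stages, and Kdr takes opposite signs (-2.00 in RA-DIFF and 0.93 in ESC). Cdh5 in ESC rests on 9 and 28 reads.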

How the results depend on the processing

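No paired analysis was possible because each condition has 1 library and the labels carry no replicate numbers, and for the same reason no library could be left out. Of the values of single members under all alternatives, 331 kept their side of the limits, 9 were called only without the expression limit, 7 were no longer called and 4 called values changed sign. Of the 331, 7 values that were not called changed sign with exchanged RA-DIFF labels (Flt1, Tie1, Cdh5, Sox18, Erg and Etv2 between genotypes in RA-DIFF, and Flt1 between the stages), and 1 with library size alone (Sox18 in ESC, 0.05). Exchanging the RA-DIFF labels gave 1 member higher and 3 lower in RA-DIFF, and 4 list genes higher and 16 lower. The log2 ratios were -2.00 for Kdr, -1.95 for Tek, 1.36 for Pecam1 and -3.49 for Emcn. The ratio of miR-126a-3p became -1.40 if the unchecked small RNA labels were exchanged as well, and stays 1.40 if they are not. Without the expression limit 3 members were called in ESC, 2 higher (Kdr and Etv2) and 1 lower (Erg), together with 5 list genes higher, and 8 members, 5 of them lower, were called between the stages in either pair of libraries, next to 7059 genes higher and 5583 lower of 19691 in the pair labelled wild type and 6761 and 5354 of 19183 in that labelled Htt-null. With edgeR's exact test at an assumed dispersion of 0.1, 13 list genes were called in RA-DIFF, 10 of them higher, and in ESC 0 members (0 higher) and 1 list gene (1 higher, 0 lower). Over all genes that test called 804 higher and 490 lower in RA-DIFF (1763 and 1268 with the size limits alone) and 110 and 74 in ESC (632 and 434). At a fold limit of 1 there were 0 members (0 higher) and 2 list genes (0 lower) called in ESC, Kdr being the member lost there under both settings, and over all genes 342 higher and 209 lower. Without the expression limit 1300 and 827 genes were called in ESC and 2294 and 2065 in RA-DIFF, where 825 were lower at a fold limit of 1. An average log2 CPM above 1 left 416 higher in ESC, and a dispersion of 0.1 left 2673 genes lower in RA-DIFF than in ESC in the libraries labelled wild type (4056 without it) and 2466 in those labelled Htt-null (3850). Median-of-ratios scaling gave 2 list genes lower in ESC. With the plain mean of log2 CPM as the limit, chosen after seeing the data, 1 member was called higher in either stage comparison, since Emcn fell below the limit, also between genotypes. For miR-126a-3p, library size alone gave 0.92 in RA-DIFF and 0.21 in ESC. Depth limits Erg, Etv2 and Sox18 in RA-DIFF, where no library had over 30 reads.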

Other observations

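Markers of 3 other kinds of cell that can share genes with endothelium were also summed. The 7 blood genes summed to 4.95 and 6.12 CPM in wild-type and Htt-null ESC and to 5.62 and 9.62 CPM in RA-DIFF labelled wild type and Htt-null. Ptprc, Spi1, Hbb-bh1 and Hba-x were at 0 in at least 1 library, and the embryonic globin gene Hbb-bh1 had 4 and 2 reads in RA-DIFF. Runx1, a factor of the endothelial to blood transition, was called higher in RA-DIFF labelled Htt-null (log2 1.36, with 291 and 656 reads), while Itga2b was not (log2 -0.09).

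The 8 visceral and primitive endoderm genes summed to between 6.51 and 17.1 CPM, with Foxa2, which also marks the floor plate, called higher in RA-DIFF labelled Htt-null (log2 2.70). Afp had 1 and 6 reads in RA-DIFF. The 7 trophoblast genes summed to 40.5, 49.3, 8.68 and 4.85 CPM in the order above, most of it in ESC from Tfap2c (32.7 and 42.6 CPM), which was called lower in RA-DIFF (log2 -1.05). Only 2 blood, 4 endoderm and 1 trophoblast genes were tested in RA-DIFF. Of these 1 blood and 1 endoderm gene were called higher and 1 trophoblast gene lower, where 11.7% of all genes tested were called higher and 8.41% lower. Among the genes not tested, Cdx2 had 33 reads in RA-DIFF labelled wild type and 1 in RA-DIFF labelled Htt-null, and Apoa1 had 6 and 32.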
